A study of Mus musculus with 39 samples.

Results

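Contacts of 5 sites across the mouse α-globin locus were compared between erythroblasts and mouse embryonic stem (mES) cells by NG Capture-C, from viewpoints placed at the plasmid FISH probes Ex, E, A, C and Cx. The samples were those that the labels name as captured from these probes, 10 of the 39 samples of the series. They comprise 3 biological replicates of each cell type. Every MFL replicate, and mES replicate 3, has a second technical replicate, and the values of technical replicates were averaged with equal weight. The MFL cells were wild-type erythroblasts, labelled as strain C57Bl6 while the study's methods describe its mice as of mixed background, expanded ex vivo from mid-gestation foetal livers, depleted of Ter119-expressing cells and then kept in differentiation medium for 30 h. The mES cells were the wild-type E14 line of strain 129/Ola, a single line, so cell type and genetic background cannot be told apart. No RNA was measured in these libraries, and the cell types were therefore not checked against marker genes.

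In NG Capture-C, crosslinked chromatin is cut with DpnII and ligated, and fragments joined to a chosen fragment, the viewpoint, are enriched with oligonucleotides and sequenced. The α-globin genes lie downstream of their enhancers, which sit in introns of the neighbouring gene Nprl3. In erythroid cells the enhancers and genes contact each other within a self-interacting domain that is flanked by CTCF-binding sites, and CTCF is a DNA-binding protein found at many domain borders. Probe E was placed by the study at the enhancers MCS-R1 and MCS-R2, Ex and A at the edges of the domain, and C and Cx downstream of it as controls. The comparison asks which contacts of these sites differ between cells in which α-globin is active and cells in which it is silent.

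All 5 viewpoint fragments lie on chromosome 11 of build mm9. Ex (chr11:32131942-32132755) overlaps exons of Mpg and Nprl3 and lies upstream of the domain. E (chr11:32150266-32150624) overlaps an annotated exon of Nprl3 inside it. A (chr11:32204978-32205650) is in no protein-coding gene and lies beyond the last globin gene. C (chr11:32254012-32255285) and Cx (chr11:32279757-32280097) are in introns of Sh3pxd2b, which encodes an adaptor protein of podosomes. A digest of mm9 gave these fragments with GATC, the DpnII site, only at their ends. The bases next to a ligation junction are shown for 1 end each of E, A, C and Cx, because ligation takes place at such ends. They are on the plus strand, with the DpnII site in capitals. Ends that overlap an annotated untranslated region are not shown, which leaves out Ex.
E, last bases, chr11:32150585-32150624: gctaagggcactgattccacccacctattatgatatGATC
A, first bases, chr11:32204978-32205017: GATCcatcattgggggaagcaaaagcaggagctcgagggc
C, first bases, chr11:32254012-32254051: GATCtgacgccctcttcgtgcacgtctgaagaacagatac
Cx, first bases, chr11:32279757-32279796: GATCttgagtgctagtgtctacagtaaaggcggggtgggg

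Depth differed between the groups. A viewpoint had 72325 to 199192 reporter reads per replicate in mES cells and 17775 to 51745 in MFL cells, so that MFL values are the less precise. Reads were derived from the value of 1 read, which is less certain for Ex and A, and the lower limits of these ranges come from Ex in mES cells and from A in MFL cells. Values are interactions per 100000 interactions on chromosome 11 (cis interactions) of the viewpoint, and for windows, sites and genes they are given per kb. In MFL cells 3 reads of a technical replicate stand for 10.94 to 65.29 per 100000, the latter from A. In mES cells they stand for 1.91 to 49.55, the latter from A in the second technical replicate of replicate 3. That technical replicate had 7127 to 14195 reads per viewpoint, against 106002 to 188599 in the first, yet had equal weight in the mean. Fragments within 1 kb of any of the 5 viewpoints were left out. With 3 against 3 replicates the two-sided exact permutation test cannot go below p = 0.1. As background for the counts of contacts, replicates of the groups did not overlap in 43.2% of the 3907 tested bins of 2 kb over all viewpoints (8.63% higher and 34.6% lower in MFL cells), and in 63.1% of the 967 tested bins within 200 kb (10.8% higher and 52.3% lower). Most windows, sites and intervals below are longer than these bins. The shares of bins are therefore not a like-for-like background, and a higher share among windows, sites or intervals is not by itself an excess. A fold is the ratio of geometric means of the replicates.

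The grid of contacts between probe windows, the stretches of 6.40 to 7.51 kb covered by the plasmids, fell into contacts across the domain and contacts over its downstream edge. With fragments near the viewpoints left out, only part of each window was counted. This part was 2.455 kb for Cx, 2.581 kb for C, 3.884 kb for Ex, 4.011 kb for E and 5.085 kb for A. Contacts of A with Ex and with E were higher in MFL cells, seen from either side. Contacts between E and Ex, and contacts of C and Cx with most other windows, were lower. Of the 20 directed contacts, the replicates of the groups did not overlap in 19, with 4 higher and 15 lower in MFL cells. Each of the 19 had an exact permutation p = 0.1, which is the smallest possible, and 0.105 after Benjamini-Hochberg adjustment over the 20. The separation of the groups was lost in 2 of the 19 with values as deposited, per 100000 reporter reads on all chromosomes, in 4 with scaling within 500 kb and in 5 with first technical replicates alone.

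**Figure D1:**
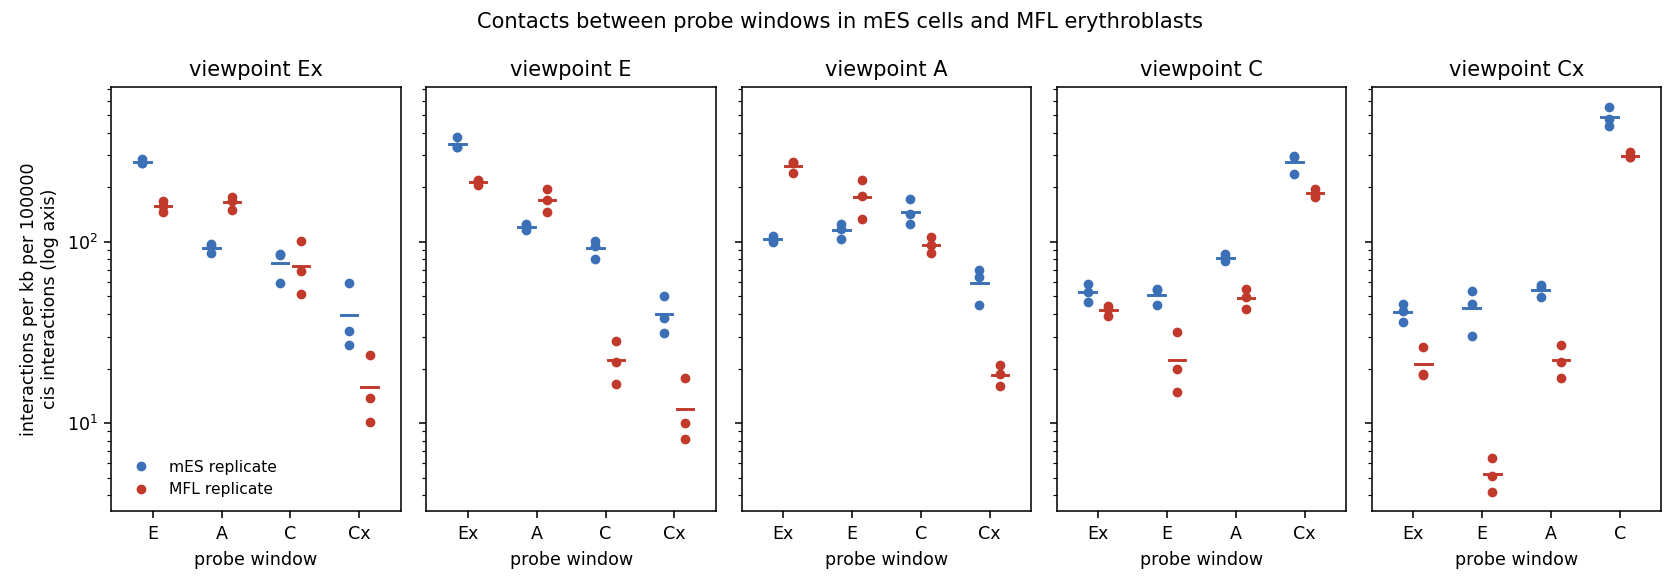
Interactions per kb per 100000 cis interactions (log axis) between each viewpoint (panels) and the other 4 probe windows (horizontal axis) in mES cells (blue) and MFL erythroblasts (red). Points are the 3 replicates and lines their means. From A, the MFL replicates lie above the mES replicates at Ex and E and below them at C and Cx. From Ex to C the groups overlap.

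From A, contacts with the Ex window measured 100.2, 103 and 107 per kb in the 3 mES replicates and 273, 238 and 276 in the 3 MFL replicates. All MFL values exceed all mES values, and the mean was 2.53-fold higher (exact permutation p = 0.1, 3 against 3). In the reverse direction, from Ex to the A window, the mES replicates had 86.5, 94.4 and 97.3 per kb and the MFL replicates 167, 150.5 and 177, a 1.78-fold difference that again left no overlap. These windows lie 71.4 kb apart, the greater distance of the 2 pairs of probe windows whose contacts were higher in MFL cells.

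Contacts between A and the enhancer window E were also higher in MFL cells, by a smaller factor. From E to A the values were 125, 122 and 115.5 per kb in mES cells and 170.1, 195 and 146 in MFL cells, a 1.40-fold difference that turned to a log2 change of -0.0784 when the values were taken as deposited, with overlapping groups. From A to E they were 118, 104 and 125.5 in mES cells and 178, 219 and 134 in MFL cells, a log2 change of 0.59. The lowest MFL replicate exceeded the highest mES replicate by little in this direction, and the groups overlapped at 0.32 with values as deposited (exact permutation p = 0.3) and at 0.29 with first technical replicates (p = 0.4).

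Contacts between E and Ex, the closest pair at 16.5 kb, were lower in MFL cells. From E to the Ex window the mES replicates had 377, 335 and 333 per kb and the MFL replicates 205, 218 and 219, which is 1.63-fold lower. From Ex to the E window the mES replicates had 273, 272 and 286 per kb and the MFL replicates 169, 157 and 147, 1.76-fold lower. Ex thus had fewer contacts with the enhancers near it and more with A beyond the genes, in each case without overlap between replicates.

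With the log2 changes from both viewpoints of a pair averaged, the largest differences of the grid were between the enhancer window and the control sites. These means were -2.40 for E and Cx and -1.67 for E and C, followed by -1.49 for A and Cx. From Cx to E the mES replicates had 45.5, 53.4 and 30.2 per kb and the MFL replicates 5.11, 4.17 and 6.45, 8.11-fold lower. The MFL value rests on 18 reads over the 3 replicates, against 781 in mES cells. From E to Cx the contacts were 3.45-fold lower, with 16 reads in MFL cells. E and C showed the same direction, with 4.23-fold lower contacts from E (101, 95.4 and 79.9 per kb in mES and 21.7, 28.4 and 16.4 in MFL cells) and 2.41-fold lower contacts from C.

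A lay between these patterns. Its contacts with C were 1.52-fold lower in MFL cells from A and 1.68-fold lower from C, and its contacts with Cx 3.18-fold lower from A and 2.48-fold lower from Cx. From A to Cx the MFL replicates had only 18.6, 16.0 and 20.8 per kb. From A to C the groups overlapped with first technical replicates (exact permutation p = 0.3). In mES cells the A window was in contact with E and C, which lie at 54.9 and 50.2 kb on opposite sides, at 116 ± 10.9 and 146 ± 23.1 per kb (SD, n = 3) from A. In MFL cells these values were 177 ± 42.1 and 96.2 ± 9.34, so that from A the order of the sides was the reverse, a difference between windows that was not tested. The order did not reverse in the other direction. The A window had a mean of 121 per kb from E and 81.9 from C in mES cells, and 170 and 49.0 in MFL cells.

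Contacts between C and Cx, which lie 24.2 kb apart outside the domain, were 1.49-fold lower in MFL cells from C and 1.63-fold lower from Cx, but at log2 changes of -0.12 and -0.16 with overlapping groups when scaled within 500 kb. From Ex, contacts with Cx were 2.49-fold lower, at 59.0, 32.4 and 27.0 per kb in mES cells and 13.8, 23.8 and 10.2 in MFL cells. The log2 change was between -1.65 and -0.98 when single replicates were left out. With first technical replicates the groups overlapped (exact permutation p = 0.2). Contacts between Ex and C were the exception of the grid. From Ex they measured 86.1, 59.4 and 84.2 per kb in mES cells and 100.7, 69.1 and 51.2 in MFL cells, the groups overlapped (exact permutation p = 0.9), and the log2 change of -0.09 was between -0.34 and 0.14 when single replicates were left out, with 0.14 reached without MFL replicate 3. From C to Ex the log2 change was -0.33 without overlap, and it was 0.12 with scaling within 500 kb of the viewpoint.

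The mean change had the same sign from both viewpoints in all 10 pairs of sites, upwards in 2 and downwards in 8, and Ex and C are among the latter although their groups overlapped from Ex. Both directions come from the same libraries and so share cells. As fragments within 1 kb of every viewpoint were left out, the 2 directions count different ligation junctions. The levels from the 2 sides of a pair were not equal: the log2 ratio of one direction to the other reached 0.85 in mES cells, for E and C, and 1.13 in MFL cells, for E and Cx, where few reads were counted. The changes seen from the 2 sides differed by 0.10 for E and A and by up to 1.23 for E and Cx.

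The profiles along the chromosome showed the same division in the share of cis interactions that fell in the domain, defined as the 63.7 kb covered by the COMP BAC, and in 4 intervals of that length on each side. E gave 37.8%, 34.9% and 35.9% of its cis interactions to the domain in mES cells and 60.6%, 59.7% and 60.0% in MFL cells, a 1.66-fold higher share of cis interactions. C gave 4.45%, 4.08% and 4.31% in mES cells and 1.11%, 1.19% and 0.977% in MFL cells, 3.93-fold lower. Cx gave 3.54%, 3.03% and 2.90% in mES cells and 0.507%, 0.511% and 0.520% in MFL cells, 6.14-fold lower.

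Ex and A, at the edges, had slightly lower domain shares in MFL cells. Ex had 16.4%, 16.0% and 15.4% in mES cells and 13.4%, 14.8% and 14.6% in MFL cells, and A had 16.4%, 16.5% and 15.1% against 12.8%, 13.7% and 12.6%. Their shares in the interval on the other side of the domain were higher. From Ex the first downstream interval held 4.44%, 4.08% and 4.77% in mES cells and 8.34%, 7.59% and 7.24% in MFL cells, 1.74-fold more. From A the first upstream interval held 5.92%, 6.20% and 6.09% in mES cells and 9.30%, 10.5% and 10.8% in MFL cells, 1.68-fold more.

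In intervals 2 to 4 on either side, counted outwards from the domain, the shares of E, Ex and A were lower in MFL cells, with overlap only for Ex in upstream interval 2. From E, upstream intervals 2 and 3 were 4.40-fold and 9.54-fold lower and downstream interval 2 was 6.23-fold lower. C and Cx showed the opposite on the far side of the domain. From C, upstream interval 2 held 2.09%, 2.13% and 2.09% in mES cells and 3.94%, 4.27% and 4.05% in MFL cells, and from Cx 1.54%, 1.61% and 1.90% against 3.17%, 2.92% and 2.77%, in each case without overlap (exact permutation p = 0.1). From C the first upstream interval had a log2 change of 0.09 with overlapping groups, while the domain between it and C had -1.97. Of the 45 shares, 42 did not overlap between groups, 10 higher and 32 lower in MFL cells. Separation was lost in 4 with values as deposited, among them C in upstream intervals 3 and 4, in 3 with scaling within 500 kb and in 1 with first technical replicates.

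**Figure D2:**
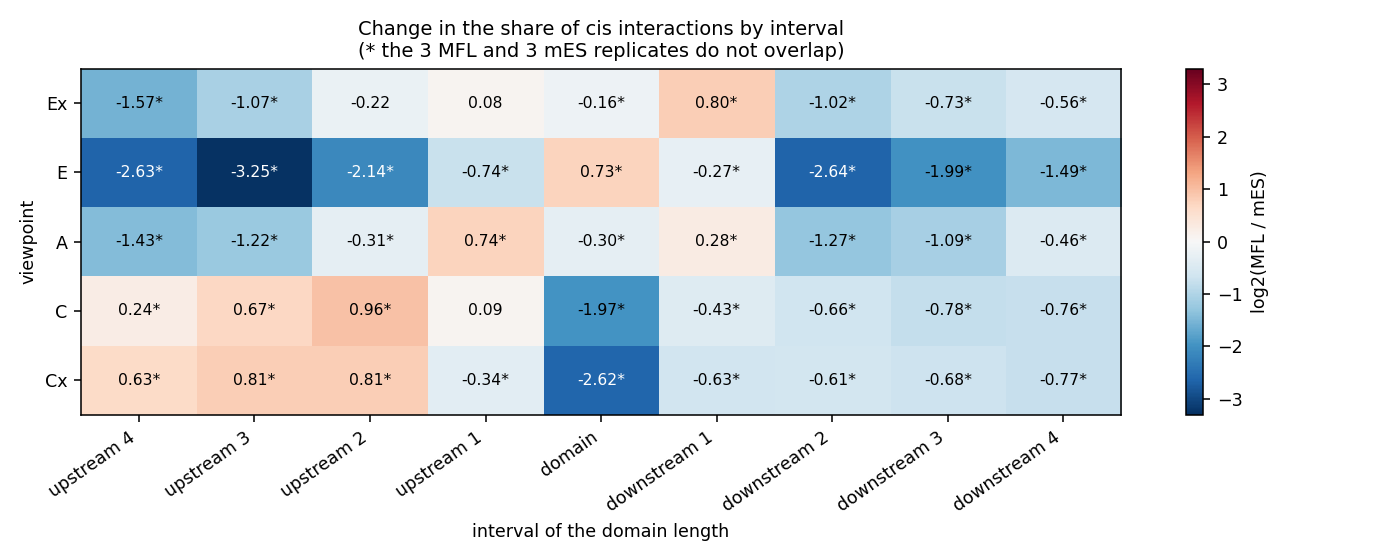
Log2 change in the share of cis interactions (MFL over mES, colour and number) for each viewpoint (rows) in the domain and 4 intervals of its length on each side (columns). Stars mark shares whose 3 replicates per group do not overlap. E is higher only in the domain (0.73) among these 9 intervals, whereas C (-1.97) and Cx (-2.62) are lowest there and higher in upstream intervals 2 to 4.

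The share of contacts far away on the chromosome differed as well and moves with every value that is scaled to cis interactions. More than 5000 kb from the viewpoint lay 18.2% ± 1.58 (SD, n = 3) of the cis interactions of C in mES cells and 36.1% ± 0.582 in MFL cells, and 19.1% ± 1.49 and 39.0% ± 0.660 of those of Cx. For Ex and A the shares were 17.0% ± 0.907 and 15.7% ± 1.54 in mES cells and 24.5% ± 0.485 and 23.4% ± 0.401 in MFL cells. For E they were 15.6% ± 1.18 and 17.6% ± 0.782, the smallest difference in means among the 5 viewpoints, whose differences were not tested against each other. The distance within which 50% of cis interactions fell went from 79.1 ± 9.79 kb in mES cells to 33.6 ± 0.251 kb in MFL cells for E, and from 173 ± 30.3 to 977 ± 28.7 kb for Cx. With scaling within 500 kb in place of the whole chromosome, the log2 change in domain share was 0.62 from E, -1.54 from C and -2.08 from Cx. With values as deposited, which the lower cis share of E in MFL cells enters, the change from E was 0.17 and the groups overlapped (exact permutation p = 0.2).

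The distance classes show where E differed. Between 20 and 50 kb from E, the range that holds the α-globin genes, lay 13.2%, 12.8% and 12.3% of cis interactions in mES cells and 23.8%, 23.3% and 24.9% in MFL cells. Between 100 and 200 kb lay 6.96% ± 0.222 (SD, n = 3) in mES and 1.16% ± 0.0629 in MFL cells, a 6.03-fold lower share. From A the class at 50 to 100 kb was 1.45-fold higher and that at 20 to 50 kb 1.33-fold lower, and from C the class at 50 to 100 kb was 2.36-fold lower. The groups did not overlap in any of these classes (exact permutation p = 0.1).

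**Figure D3:**
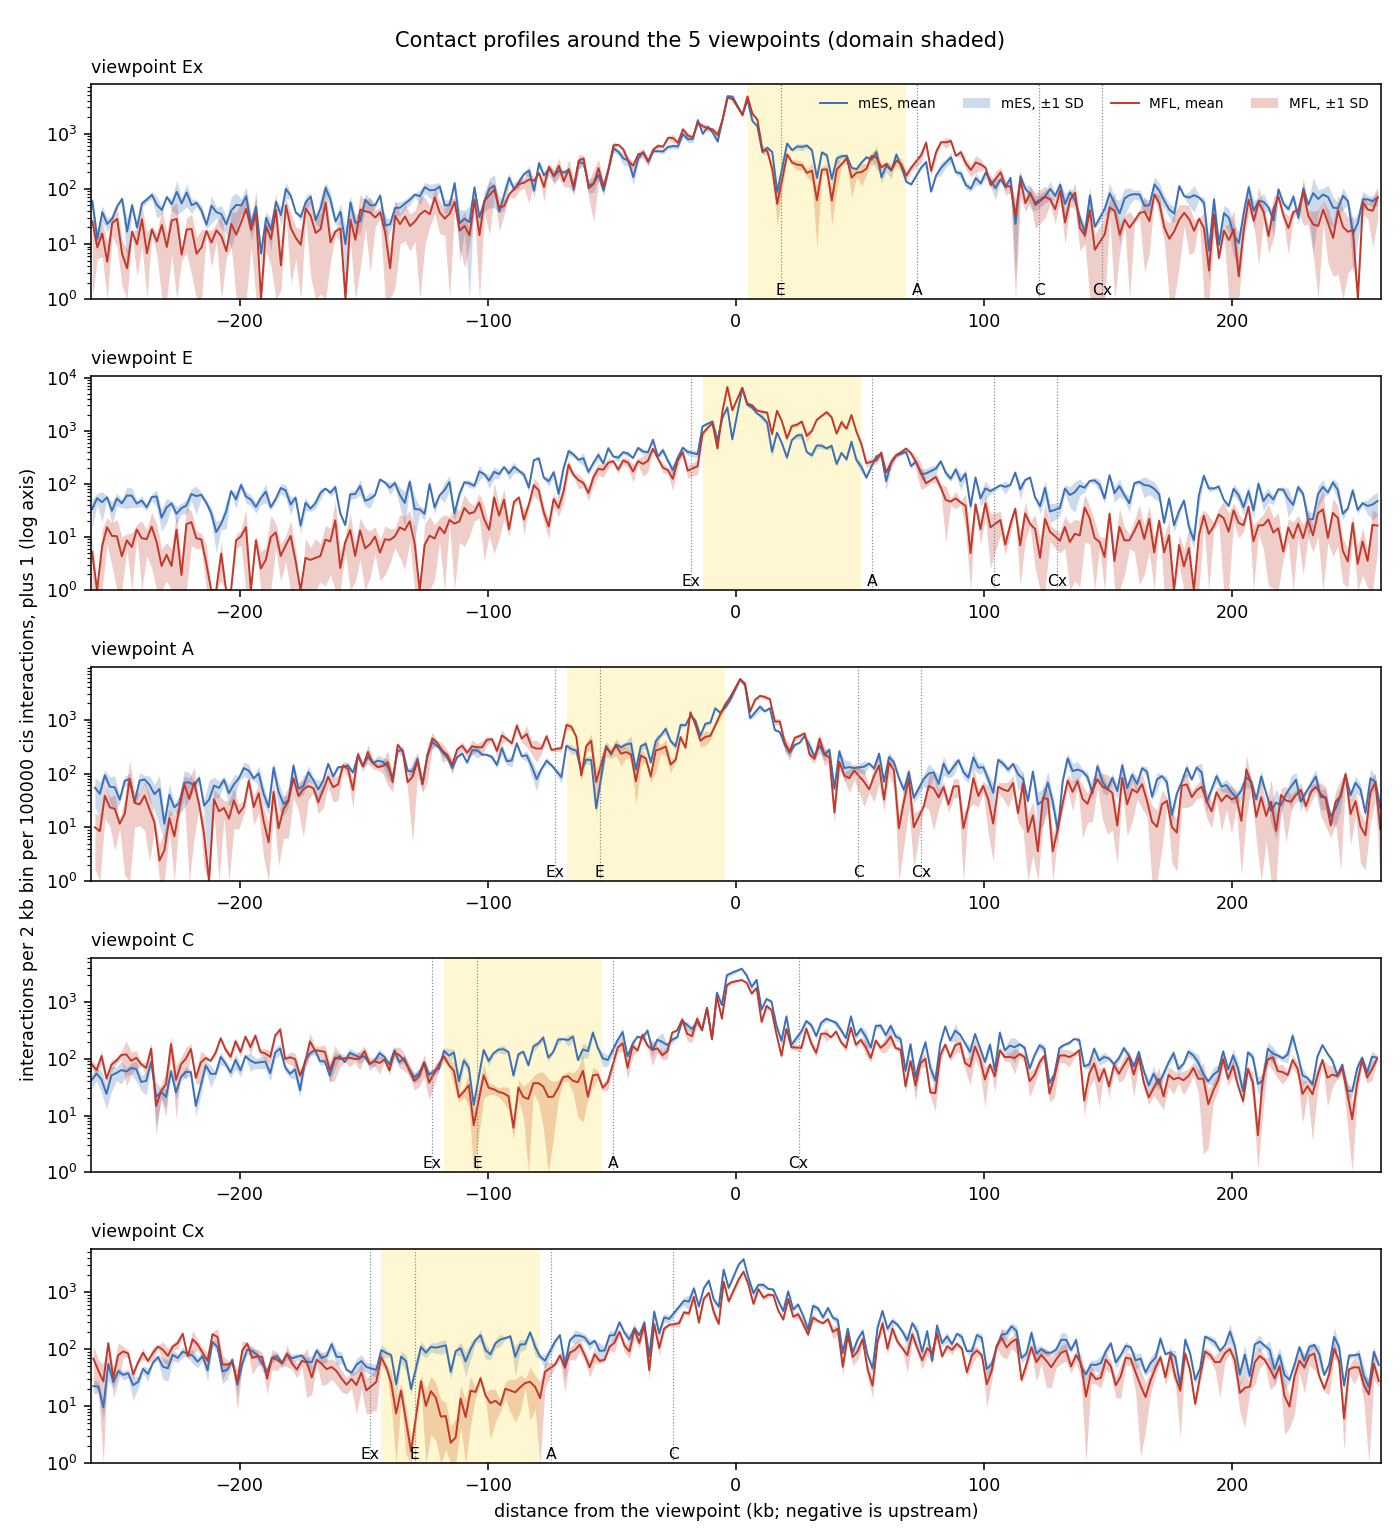
Interactions per 2 kb bin per 100000 cis interactions, plus 1 (log axis), against distance from each of the 5 viewpoints in mES cells (blue) and MFL erythroblasts (red). Lines are means of 3 replicates, bands 1 SD, the yellow area is the domain, and dotted lines mark the other viewpoints. From E the MFL line lies above the mES line inside the domain and below it on both sides, and from C and Cx it dips within the domain and returns to or passes the mES line upstream of it.

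Within 100 kb, the balance of contacts upstream and downstream of a viewpoint changed most at E. The log2 ratio of interactions at 5 to 100 kb upstream to those at the same distances downstream was -0.34, -0.32 and -0.30 in mES cells and -1.78, -1.83 and -1.80 in MFL cells from E (exact permutation p = 0.1). Contacts of E lay more to its downstream side, where the genes are. From A and Cx the ratio fell by 0.26 each, without overlap. From Ex and C the groups overlapped, with changes of 0.03 and 0.02. This ratio is formed within a viewpoint and does not depend on the scaling.

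The genes of the locus divided by viewpoint. The 11 protein-coding genes that overlap the domain or the 2 intervals on either side are, from upstream, Il9r (a cytokine receptor), Snrnp25 (a protein of the minor spliceosome), Rhbdf1 (an inactive rhomboid protein), Nprl3 (a regulator of mTORC1 that hosts the enhancers), Mpg (a DNA repair glycosylase), the globin genes Hba-x, Hba-a1, Hbq1b, Hba-a2 and Hbq1a, and Sh3pxd2b. Contacts per kb of gene body were tested with limma on log2 values after adding 1, over 91 tests of genes and viewpoints on chromosome 11, of which 16.5% were higher and 56.0% lower in MFL cells at an adjusted p below 0.05. Among the 55 tests of the 11 genes, 11 were higher and 26 lower. Hba-a1 and Hba-a2 are near-identical copies, as are Hbq1a and Hbq1b, and how reads were divided between copies is uncertain.

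From E, all 5 globin genes and Nprl3 rose, the 6 genes that make up the 35.3% of 17 tested genes called higher from E, against 58.8% called lower. Hba-a1 (chr11:32183511-32184465), an adult α-globin gene, had 447, 407 and 373 per kb in mES cells and 1272, 1316 and 1220 in MFL cells (log2 change 1.63, SE 0.08, limma adjusted p = 6.09e-05). Hba-a2 (chr11:32196489-32197301), its copy, had 393 ± 65.3 and 1243 ± 55.2 (SD, n = 3; 1.67, SE 0.13, adjusted p = 0.000184). Hbq1b (chr11:32186965-32187784), a θ-globin gene, had the largest rise, 4.30-fold from 256 ± 37.9 to 1100 ± 108 (SE 0.13 on the log2 scale, adjusted p = 0.0001). The embryonic gene Hba-x rose by 0.92 and Hbq1a by 1.39 on the log2 scale, so that the 4 genes nearest to A gained more than Hba-x, though differences among them were not tested.

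The other 5 genes fell from E. Sh3pxd2b (chr11:32247820-32328173), where C and Cx lie, had 41.5, 39.7 and 41.9 per kb in mES cells and 6.97, 8.05 and 6.40 in MFL cells (log2 change -2.37, SE 0.10, adjusted p = 6.09e-05). Il9r (chr11:32087541-32100279) went from 151 ± 4.17 to 81.1 ± 1.92 (-0.89, SE 0.07, adjusted p = 0.000184), and Rhbdf1 (chr11:32109585-32122300) from 224.5 ± 17.8 to 143 ± 10.7 (-0.65, SE 0.10, adjusted p = 0.00173). Snrnp25 and Mpg fell by 0.65 and 0.48. Mpg and Nprl3 overlap, but Mpg fell while Nprl3, most of which lies in the domain, rose by 0.37. These changes are relative to cis interactions. With values as deposited the log2 change in the domain share of E was 0.17 in place of 0.73. Gene tests called higher over all viewpoints then numbered 8 in place of 15, so a small rise such as that of Nprl3 may not hold.

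From A the genes divided the other way, with 25% of 20 tested genes higher and 50% lower. Mpg (chr11:32126505-32132700), on the far side of the domain, had 99.8, 84.3 and 74.8 per kb in mES cells and 202, 206 and 237 in MFL cells (log2 change 1.31, SE 0.14, adjusted p = 0.000411). Rhbdf1 rose from 118 ± 9.35 to 254 ± 35.9 (1.09, SE 0.13, adjusted p = 0.000734) and Snrnp25 (chr11:32105415-32108984) from 113 ± 2.44 to 223 ± 34.2 (0.96, SE 0.13, adjusted p = 0.00103). The α-globin genes, much closer to A, fell. Hba-a2 had 776, 857 and 738 per kb in mES cells and 339, 293 and 394 in MFL cells (-1.22, SE 0.13, adjusted p = 0.000411), and Hba-a1 fell from 757 ± 61.4 to 357 ± 35.1 (-1.08, SE 0.10, adjusted p = 0.000332). Hba-x fell as well by 1.23, Nprl3 rose by 0.54 and Hbq1b by 0.28, Hbq1a and Il9r did not pass the threshold at 0.11 and 0.25, and Sh3pxd2b fell from 59.2 ± 4.39 to 27.5 ± 2.14 (-1.08, SE 0.09, adjusted p = 0.000212).

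From C and Cx no gene of the 11 rose, and 7 and 9 fell, beside 11.1% higher and 61.1% lower of 18 tested genes from C and 11.8% and 76.5% of 17 from Cx. Nprl3 went from 51.1 ± 2.51 to 22.8 ± 1.67 per kb from C (log2 change -1.13, SE 0.08, adjusted p = 0.000165) and from 40.0 ± 2.94 to 10.3 ± 0.998 from Cx (-1.86, SE 0.10, adjusted p = 6.09e-05). The 5 globin genes fell from both, on 8 to 24 MFL reads each from C and 6 to 24 from Cx. From C, Hbq1b fell from 123 ± 23.0 to 25.8 ± 3.39 (-2.20, SE 0.17, adjusted p = 0.000184), with 370 reads in mES and 16 in MFL cells, and Hbq1a from 196, 144 and 117 to 43.0, 30.9 and 31.0, with 8 reads in MFL cells. From Cx, Hba-a2 and Hbq1b had 8 reads each in MFL cells over 3 replicates, against 421 and 283 in mES cells, so their log2 changes of -3.72 and -3.03 are imprecise and depend on the 1 that was added. Il9r and Snrnp25, on the far side of the domain, did not pass the threshold from C (0.10 and 0.11) or Cx (-0.03 and -0.33). Rhbdf1 and Mpg, on the same side, did not pass from C (-0.16 and -0.23) but fell from Cx, by 0.83 (limma adjusted p = 0.000411) and 0.95 (adjusted p = 0.00781).

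From Ex, where 0.0% of 19 tested genes were higher and 36.8% lower, Sh3pxd2b alone of the 11 passed the threshold. It fell from 33.2 ± 2.46 to 18.7 ± 1.80 per kb (log2 change -0.80, SE 0.10, adjusted p = 0.000758). The other 10 genes, globin genes among them, had log2 changes from Ex of -0.29 to 0.39. Fragments at the promoters of Hba-a1 and Hba-a2, with 1 kb on each side, were lower from Ex without overlap, each at a log2 change of -0.40. With first technical replicates these groups overlapped. The enhancers MCS-R1 and MCS-R2, counted likewise, had -0.50 and -0.92 from Ex, without overlap.

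**Figure D4:**
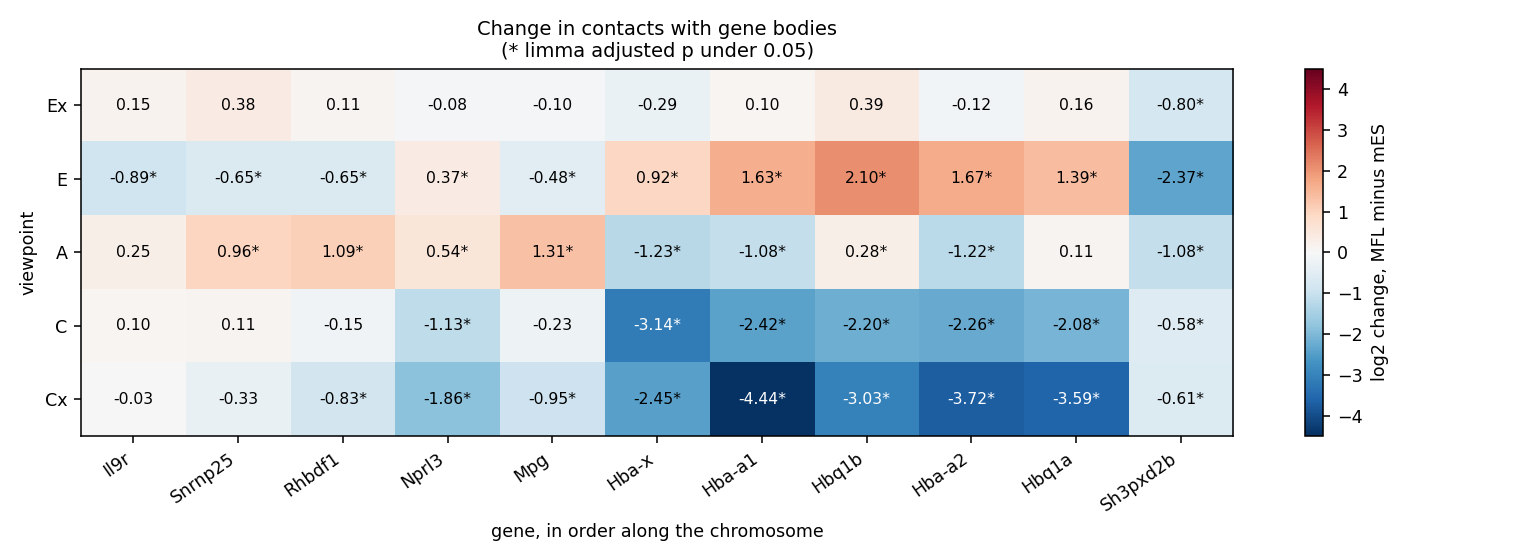
Log2 change in contacts per kb of gene body (MFL minus mES, colour and number; log2 of value plus 1) for each viewpoint (rows) and the 11 genes in order along the chromosome (columns). Stars mark a limma adjusted p below 0.05. The globin genes are higher from E, from 0.92 at Hba-x upwards, and lower from C and Cx, and from A, Mpg, Rhbdf1 and Snrnp25 upstream of the domain are higher. The values from Cx at the globin genes rest on 6 to 24 MFL reads each.

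At the regulatory sites, contacts were summed over the fragment that other captures of the study used as a viewpoint and 1 kb on each side. Of the 35 contacts of 5 viewpoints with 7 sites, 27 did not overlap between groups, with 10 higher and 17 lower in MFL cells. Among the 2 kb bins within 200 kb of a viewpoint, which differ in size from these sites, the share without overlap was 63.1%. Separation was lost in 4 with values as deposited, in 3 with scaling within 500 kb and in 5 with first technical replicates. From E the promoter of Hba-a1 had 353, 298 and 276 per kb in mES cells and 976, 995 and 950 in MFL cells, 3.17-fold higher, and that of Hba-a2 had a log2 change of 1.68. Enhancer MCS-R1, next to E, was 1.71-fold higher, with 1051, 1034 and 1122 per kb in mES cells and 1949, 1736 and 1799 in MFL cells, and the groups overlapped with values as deposited (log2 change 0.21). MCS-R2, of which only the part beyond 1 kb from E could be counted, had 3373 ± 203 and 3368 ± 223 per kb, and the groups overlapped.

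From A and Ex, contacts with CTCF sites at the opposite edge of the domain were higher in MFL cells, and so were some of their other contacts. From A, HS39.5, the CTCF site at the upstream border, had 158, 141 and 168 per kb in mES cells and 391, 311 and 435 in MFL cells, 2.42-fold higher. From Ex, the downstream site CTCF +44 had 90.6, 86.4 and 87.3 per kb in mES cells and 205, 195 and 163 in MFL cells, 2.12-fold higher, and CTCF +48 was 2.26-fold higher. At the nearer edge, CTCF +44 was 1.48-fold higher from A and HS39.5 was 1.15-fold higher from Ex, both with overlap as deposited. From A to CTCF +44 the groups also overlapped with first technical replicates (log2 change 0.38, exact permutation p = 0.4). CTCF +48 overlapped between groups from A. Inside the domain, MCS-R1 was 2.01-fold higher from A, MCS-R2 overlapped, and the promoters of Hba-a1 and Hba-a2 had log2 changes of -0.93 and -1.03. From E, CTCF +44 was 1.58-fold higher, with a log2 change of 0.10 and overlapping groups as deposited, HS39.5 was 1.38-fold lower, and CTCF +48 overlapped between groups.

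From C and Cx the promoters were lower, and the CTCF sites were lower or overlapped between groups. The Hba-a1 and Hba-a2 promoters were 6.11-fold and 7.04-fold lower from C, with 39 and 40 MFL reads. HS39.5 had 65.6 ± 8.25 per kb in mES and 51.9 ± 9.47 in MFL cells from C, and 45.5 ± 11.4 and 33.9 ± 9.66 from Cx, and the groups overlapped in both (exact permutation p = 0.2 and 0.3). CTCF +44 had 66.0 ± 16.3 and 66.6 ± 27.8 per kb from C, also with overlap (exact permutation p = 0.9). From Cx, CTCF +44 had 66.7, 57.6 and 44.7 per kb in mES cells and 30.8, 33.6 and 16.0 in MFL cells, a log2 change of -1.12, and CTCF +48 changed by -0.63, both without overlap. Scaled within 500 kb these were -0.58 and -0.092 with overlap.

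Across 2 kb bins, 121 were higher (3.1%) and 574 lower (14.7%) in MFL cells of 3907 tested with limma over the 5 viewpoints together, at an adjusted p below 0.05. The median log2 change of all tested bins was -0.75, and it was -1.08 for values as deposited and -0.47 with scaling within 500 kb. Calls therefore leaned less to lower values with local scaling, where 35.8% of calls were higher, than in the main values with 17.4%, or as deposited with 7.42%. Without any 1 of the 3 mES replicates the lower bins numbered 138 to 150, and the higher bins 67 to 76. With eBayes without a trend they numbered 255 and 50, and 12 of the 17 named bins below then lost their call.

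The position of the higher bins set the viewpoints apart. From E, 5.26% of 608 bins were higher, and 22 of these 32 lay in the domain. Bins were placed by midpoint, and of the 30 tested bins so placed in the domain none was lower. From Ex, 14 of 21 higher bins (2.82% of 745) were in the first downstream interval. From A, 16 of 30 (3.78% of 794) were in the first upstream interval. From C and Cx none of the 19 higher bins each (2.19% of 867 and 2.13% of 893) was within 100 kb, and 13 from each were in upstream intervals 2 to 4.

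In the domain, 23 of the 30 bins tested from C and 27 of the 29 from Cx were lower. These are a minority of the 93 and 101 lower bins, of which 43 and 49 lay in downstream intervals 1 to 4. From E, 225 bins or 37.0% were lower. From Ex 7.79%, from A 12.2%, from C 10.7% and from Cx 11.3% of bins were lower. Lower bins with no read in any MFL replicate were 17 from E, 16 of 97 from A, 5 of 58 from Ex and 2 of 93 from C. In these a change is limited by depth. The filter was a mean over both groups, so such bins were tested only through their mES values.

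Single bins give the size of these differences. From E the bin chr11:32148001-32150000 in Nprl3, at -1.3 kb from the viewpoint, was the higher bin with the lowest adjusted p over all viewpoints, with 635, 743 and 688 interactions in mES cells and 2531, 2381 and 2394 in MFL cells (log2 change 1.82, SE 0.09, limma adjusted p = 2.11e-06). The bin chr11:32146001-32148000 beside it, which holds part of MCS-R1, had the highest mean, 2742 ± 263 in mES and 6674 ± 371 in MFL cells (1.29, SE 0.08, adjusted p = 6.29e-06). The most significant lower bin from E was chr11:32058001-32060000, at -91.3 kb and in no protein-coding gene, at 156 ± 37.2 and 13.0 ± 3.94. The lower bin chr11:32136001-32138000 spans the upstream edge of the domain, holds the CTCF site HS39.5 and was counted outside the domain by its midpoint. It had 1210 ± 33.3 and 879 ± 94.9 (-0.47, adjusted p = 0.0168), and did not pass without any single mES replicate.

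From Ex the most significant higher bin was chr11:32208001-32210000, 76.2 kb away beyond A, with 310, 338 and 270 interactions in mES cells and 660.5, 728 and 686 in MFL cells (log2 change 1.18, SE 0.14, adjusted p = 0.000728). The bin chr11:32138001-32140000, at 6.2 kb, was higher by 0.43 (adjusted p = 0.00964), and did not pass without mES replicate 2. Of the 58 lower bins from Ex, 12 lay in the domain. The 2 named by the rule are in Nprl3, with chr11:32160001-32162000 at 607 ± 54.1 in mES and 194 ± 30.4 in MFL cells (-1.65, SE 0.17, adjusted p = 0.000216) and chr11:32152001-32154000, just downstream of MCS-R2, at 665 ± 32.6 and 420.0 ± 33.0.

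From A the higher bins named by the same rule, chr11:32216001-32218000 and chr11:32214001-32216000, lay 11.4 and 9.4 kb downstream, between A and CTCF +44. The former had 1498, 1362 and 1419 interactions in mES cells and 2858, 2756 and 2274 in MFL cells (log2 change 0.88, SE 0.10, adjusted p = 0.000499). The lower bin chr11:32196001-32198000, at -8.0 kb, contains Hba-a2 and had 1615, 1663 and 1603 in mES cells and 817, 789 and 745 in MFL cells (-1.05, SE 0.09, adjusted p = 6.58e-05).

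From C, the bin chr11:32060001-32062000, at -193.0 kb, had 76.4, 72.0 and 102 interactions in mES cells and 244, 283 and 239 in MFL cells (log2 change 1.61, SE 0.23, adjusted p = 0.00174), and chr11:32070001-32072000, at -183.0 kb, had 158, 182 and 113 in mES cells and 288, 308 and 388 in MFL cells (1.13, adjusted p = 0.00878). From Cx, chr11:31996001-31998000, at -282.8 kb, had 29.9 ± 8.80 and 126 ± 41.9 (2.02, SE 0.40, adjusted p = 0.00831), and chr11:32056001-32058000 had 89.7 ± 19.2 and 186 ± 4.36 (1.07, adjusted p = 0.0154), a call that did not hold without mES replicate 1 or without mES replicate 2. These 4 bins are in no protein-coding gene and lie on the other side of the domain. The most significant lower bins were beside the viewpoints in Sh3pxd2b, chr11:32256001-32258000 from C (-0.66, adjusted p = 0.000139) and chr11:32282001-32284000 from Cx (-0.73, adjusted p = 9.17e-05).

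The share of reporter reads on chromosome 11 itself was lower in MFL cells from every viewpoint. From E it was 85.9%, 80.9% and 84.1% in mES cells and 55.2%, 52.9% and 62.5% in MFL cells. From the other 4 viewpoints it was 80.2% to 84.8% on average in mES cells and 66.3% to 70.4% in MFL cells. E lay 1.57 ± 1.31 percentage points (SD, n = 3) above the mean of the other 4 in mES cells and 11.5 below it in MFL cells, at -11.5 ± 1.23 (exact permutation p = 0.1), and this comparison of viewpoints was chosen after the values were seen.

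Separate libraries captured from MCS-R2, which lies beside E, allowed the contrast to be set beside that from E, with the fragments near both sets of viewpoints left out. They comprise 3 replicates each of mES and MFL cells, and the labels' time field and sample descriptions give different times for the MFL cells. In MFL cells R2 had 5734, 7593 and 16459 reporter reads, against 32493 to 42051 per replicate from E. MFL values from R2 are therefore the less precise. The domain had 579 ± 17.2 per kb in mES and 840.1 ± 14.3 in MFL cells from R2, a log2 change of 0.54, and 555.5 ± 27.3 and 987 ± 6.61 from E, a change of 0.83. The Ex window changed by -0.72 from R2 and -0.63 from E, and the C window by -1.23 and -2.01.

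In the A window the groups overlapped from R2 and did not overlap from E. From R2 it had 125 ± 4.95 per kb in mES and 124 ± 33.6 in MFL cells, with overlapping groups (exact permutation p = 1.0) and a log2 change between -0.19 and 0.20 when single replicates were left out. From E it had 131 ± 5.05 and 195 ± 28.0, a log2 change of 0.56. The changes from the 2 captures also lay apart in the C window, and differences between captures were not tested.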

How the data were processed

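3C libraries were cut with DpnII, enriched by oligonucleotide capture and sequenced; the authors mapped reads to mm9 (Trim Galore and Bowtie are named in the submitters' processing notes, versions not given in the sources used here). The deposited values have RPM as the nearest unit, but are reads per 100000 reporter reads of a viewpoint, on DpnII fragments. Technical replicates carry different pipeline prefixes in the file headers. For E, C and Cx whole reads were recovered (100.0% of values whole). Of 56968 listed fragments of chromosome 11, 56967 matched a digest of mm9. Genes were from GENCODE vM1.

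Each viewpoint was scaled to 100000 cis interactions after leaving out fragments within 1 kb of the 5 viewpoints, and technical replicates were averaged. Fragments were assigned by midpoint. Log2 values of windows, shares, ratios and sites, without a pseudocount, were tested by exact permutation (two-sided, 20 arrangements). Bins of 2 kb and gene bodies with a mean of at least 10 were tested with limma 3.58.1 in R 4.3.3 (log2 of value + 1, trended eBayes, Benjamini-Hochberg over all viewpoints, threshold 0.05). The bin test was also run on simulated reads with known fold changes. The simulation had no shift shared by all bins, unlike these data, so it does not vouch for the calls made here. edgeR 4.0.16 on recovered reads (E, C and Cx) was an alternative. DESeq2, named by the study, was not used because the deposited values are scaled. The labels call the replicates biological without naming animals or cultures, so p-values measure the spread between these libraries. Counting floors cover counting error only.

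Named bins were, per viewpoint and direction, the one with the smallest adjusted p and the one with the largest mean among called bins without overlap, and named genes, per viewpoint and direction, the 3 with the smallest adjusted p near the domain. Members, lists and tests were chosen with earlier results of these data known. Same-numbered replicates did not deviate together (correlations of deviations -0.05 to 0.04), so numbers were not used as pairs.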

Additional observations from a re-analysis of the deposited data

How the results depend on the processing

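Depth limits the MFL values, since contacts of C and Cx with the domain rest on few reads, and no exact test of 3 against 3 replicates can pass 0.05. Some log2 changes reversed. With values as deposited these were E to A (-0.0784), the shares of Ex in upstream interval 1 (-0.16) and of C in upstream intervals 1 (-0.16) and 4 (-0.0020), Ex to HS39.5 (-0.0470) and A to CTCF +48 (-0.12). With scaling within 500 kb they were C to Ex (0.12), C in downstream interval 1 (0.018), Cx in upstream interval 1 (0.20), C to HS39.5 (0.11), CTCF +44 (0.41) and CTCF +48 (0.20), and Cx to HS39.5 (0.10). With first technical replicates they were C in upstream interval 1 (-0.061), the balance of C (-0.024), E to MCS-R2 (0.032), A to CTCF +48 (-0.014) and C to CTCF +44 (0.16). Leaving out single replicates gave -0.34 to 0.14 for Ex to C, -0.012 to 0.074 for the balance of Ex, -0.0052 to 0.039 for that of C, -0.054 to 0.053 for E to MCS-R2, -0.35 to 0.21 for C to CTCF +44 and -0.19 to 0.20 for the A window from R2, an alternative chosen after seeing the data. The cause was not tested.

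Against 121 higher and 574 lower bins, values as deposited gave 85 and 1061, scaling within 500 kb 182 and 326, first technical replicates 41 and 139, no filter 87 and 266, eBayes without a trend 50 and 255, and a mean of at least 50 gave 117 and 373. Leaving out single replicates gave 67 to 132 higher and 138 to 716 lower bins. edgeR on recovered reads called 215 higher and 814 lower bins from E, C and Cx, where limma called 70 and 419. For gene bodies, 15 higher became 8 as deposited and 23 within 500 kb, and 51 lower became 26 without the filter and 20 with a mean of at least 50. With single replicates left out, 13 to 15 gene tests were higher and 46 to 57 lower. The replicate number as a block gave 118 higher and 684 lower bins and left the grid as it was, for example at -0.81 for Ex to E, and same-numbered replicates shared only a number.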

Other observations

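Among reads outside chromosome 11, viewpoint C had a single DpnII fragment on chromosome 7 that held 0.840%, 0.978% and 1.37% of its reporter reads in the 3 mES replicates and 1.54%, 1.35% and 1.78% in the 3 MFL replicates. From the other 4 viewpoints the 100 kb around it held at most 0.00616% of the reads in any replicate. It was chosen after the values were seen, lies outside the cis scaling, and its origin was not tested.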
